A study of Mus musculus with 20 samples.

Results

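Collagens and the proteins that organise them make up the structural matrix of fat, and 59 genes of this kind were examined among the 14776 genes for which values were deposited. The members were taken by name. All 31 rows named as collagen chains were kept, and 28 of 29 further names were found, covering laminins, nidogen, proteoglycans, fibrillin, fibulins, matricellular proteins and enzymes that modify collagen. Tnc was not analysed here. By structure the members were sorted into 8 fibrillar chains, 5 type VI chains, 13 basement membrane genes, 5 fibril-associated (FACIT) chains, 5 other collagens, 4 leucine-rich proteoglycans, 4 elastic fibre genes, 7 glycoprotein and matricellular genes, and 8 genes for collagen modification and uptake.

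RNA was sequenced from epididymal white adipose tissue (eWAT), the fat pad that lies against the epididymis, of male C57BL/6J mice that were 6 weeks old when the diets began. The NC group (6 mice by the labels) ate maintenance feed. The methods name saline for the HFD controls and do not state outright that NC mice received it. The HFD group (7 mice) ate a feed with 60% of its energy from fat for 20 weeks and was given saline by gavage over the last 6 weeks. The SZ-A group (7 mice) ate the same fat-rich feed and was given Ramulus Mori (Sangzhi) alkaloids, an extract of mulberry twig, at 400 mg/kg each day over those 6 weeks. All mice were of this 1 strain, the labels name no genetic change, and the animals were fasted overnight before collection. Tissue and not sorted cells was extracted, so a gene's level mixes every cell of the pad, and fewer cells of a type cannot be told apart from less RNA per cell.

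Fibrillar collagens of types I, III and V assemble into the fibres that carry tension around adipocytes, and type VI collagen forms beaded filaments in the matrix next to the cells. Type IV collagen, laminins and nidogen form the basement membrane, the thin sheet that wraps each adipocyte and each capillary. Lysyl oxidases cross-link collagen and elastin, whereas Mrc2 encodes a receptor that takes collagen into the cell for breakdown. In obese fat the matrix around adipocytes is known to thicken, and fibroblast-like stromal cells are its main source.

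The sequences before the start sites of 3 genes and 1 shared interval are shown as examples of the classes compared, with 1 gene each for fibrillar, type VI and basement membrane structure, all higher in HFD mice, and a type IV pair that was lower. They are from RefSeq on GRCm38.p6, read 5′ to 3′ on the gene's strand, and hold 0 bases of any exon in GENCODE M21. The Lama2 window precedes its RefSeq start but lies inside the GENCODE gene, whose start on the - strand is at 27619758. Capitals mark the only match to 4 motifs that were searched on both strands, the CCAAT box, the TATAAA box, the GC box GGGCGG and the activator protein element TGANTCA, of which the last reads the same way on both strands.
Col3a1, chr1:45311288-45311537, + strand: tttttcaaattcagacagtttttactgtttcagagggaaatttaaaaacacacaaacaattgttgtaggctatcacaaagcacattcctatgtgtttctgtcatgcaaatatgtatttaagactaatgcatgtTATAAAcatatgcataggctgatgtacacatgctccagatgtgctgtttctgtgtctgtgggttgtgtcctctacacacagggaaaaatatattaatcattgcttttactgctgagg
Col6a3, chr1:90843972-90844221, - strand: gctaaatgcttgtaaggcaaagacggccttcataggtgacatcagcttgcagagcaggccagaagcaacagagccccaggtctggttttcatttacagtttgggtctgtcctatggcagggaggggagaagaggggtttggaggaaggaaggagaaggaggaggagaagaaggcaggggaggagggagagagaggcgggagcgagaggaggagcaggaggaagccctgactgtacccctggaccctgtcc
Lama2, chr10:27616943-27617192, - strand: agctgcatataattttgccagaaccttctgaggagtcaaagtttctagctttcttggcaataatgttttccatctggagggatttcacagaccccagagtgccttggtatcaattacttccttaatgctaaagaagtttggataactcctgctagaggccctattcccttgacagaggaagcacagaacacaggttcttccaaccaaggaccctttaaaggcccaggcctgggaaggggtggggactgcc
Interval between the start sites of Col4a4 and Col4a3, chr1:82586850-82586920, - strand: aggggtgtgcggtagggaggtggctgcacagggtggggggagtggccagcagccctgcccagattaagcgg
The match in Col3a1 begins 117 bases before the start. Promoter sequence was found for 40 of the members (44 start sites), of which TATAAA occurred in the 250 bases before 9.09%, against 6.62% for the genes of the deposited table and 12.4% for all promoters. GGGCGG was held by 61.4% of the members' start sites, 55.9% of those of deposited genes and 32.7% of all promoters. CCAAT was held by 29.5%, 34.8% and 33.8%, and TGANTCA by 4.55%, 4.58% and 6.75%. These are letter matches in a window and not binding sites.

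Between 13567667 and 19388628 reads per mouse fell on the deposited genes, and 10 members had fewer than 10 reads in at least 1 mouse. A single NC mouse, replicate 6, stood apart. Its median correlation with the other NC mice was 0.763 on the log2 scale, against 0.880 to 0.955 for the others of that group. Stromal and adipocyte genes were very low in it, with summed adipocyte markers of 487.9 FPKM where the other NC mice had at least 9270. Among the SZ-A mice, replicate 5 had the lowest median correlation with its group (0.894) and 11.6% mitochondrial reads. A log2 difference between HFD and NC that NC replicate 6 moved by more than 1.5 times is given with and without that mouse. Mitochondrial reads were 3.3% to 8.34% of the total in NC and 1.67% to 2.92% in HFD mice, without overlap, and what part this had in the matrix differences was not tested.

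Epithelial genes also differed between the groups. Of 14 markers of epididymis and epithelium, 5 were in the table (Adgrg2, Cdh1, Krt18, Krt19 and Spint2), the other markers were not analysed here, and all 5 were lower in HFD than in NC. Summed, they came to 47.6 to 1287 FPKM in the NC group, 6.02 to 16.1 in the HFD group and 6.53 to 346 in the SZ-A group. The highest NC sum was that of replicate 6, and the next was 746 FPKM. The mean log2(FPKM + 1) of these 5 genes ran from 2.66 to 7.67 in NC, where replicate 6 was again highest and the next mouse had 6.05. In HFD mice it ran from 1.05 to 1.71, so diet and epithelial signal cannot be told apart between NC and HFD mice. In SZ-A mice it ran from 0.819 to 5.89 and overlapped with both. The plot of this score against collagen levels shows the separation.

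**Figure D1:**
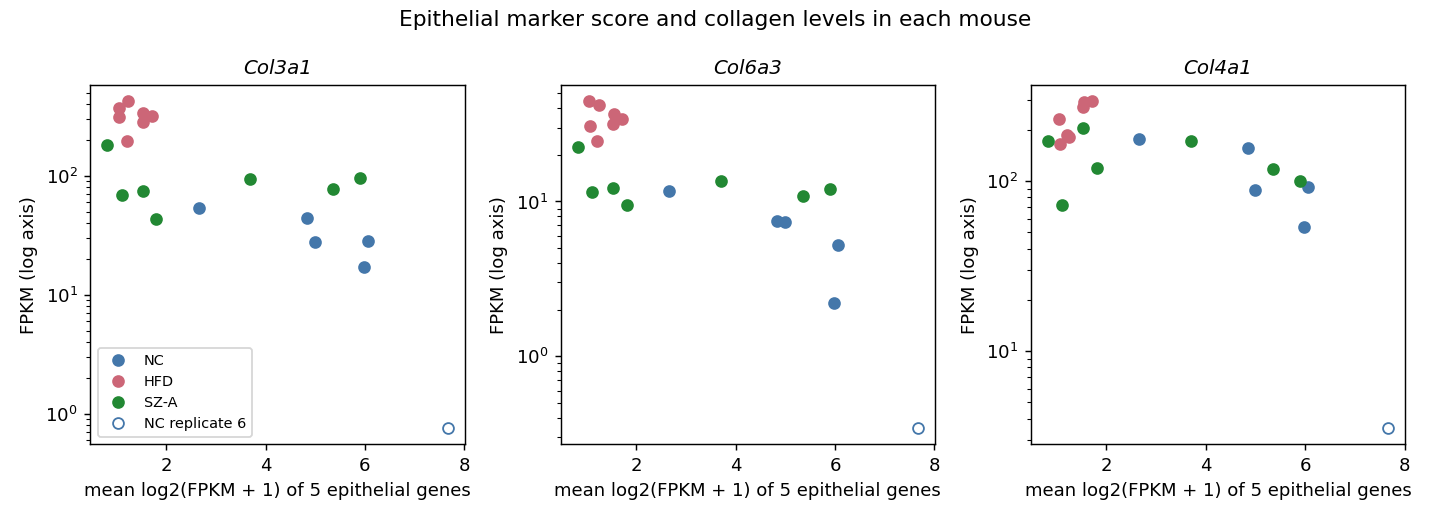
Levels of Col3a1, Col6a3 and Col4a1 (FPKM, log axis) against the mean log2(FPKM + 1) of 5 epithelial genes, with 1 point per mouse coloured by group and NC replicate 6 open. The HFD mice lie between 1.05 and 1.71 on the horizontal axis and every NC mouse lies at 2.66 or above.

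The first comparison asked how matrix genes differed after the fat-rich feed. Most members were higher in HFD than in NC mice. Of 58 members tested, 39 were called higher and 5 lower at an adjusted p under 0.05 (limma with Benjamini-Hochberg adjustment over all 14706 genes tested). Over all genes, 21.0% were called higher and 20.1% lower. With a log2 difference above 1.5 required as well, 31 members were called higher, against 5.43% of all genes. In 28 members every HFD mouse was above every NC mouse, which was the case for 12.7% of all genes tested, and the median log2 difference was 1.65 over the members and -0.041 over all genes.

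Without NC replicate 6, 39 of 57 members were called higher and 6 lower, against 22.6% of genes in each direction, and the median over the members came to 1.2. With the epithelial score as a covariate, only 4 members were called higher (Mrc2, Col16a1, Loxl3 and Col14a1) and 6 lower (Dcn, Thbs1, Thbs2, Lamb1, Eln and Col4a6). With the covariate and without NC replicate 6, 5 were called higher (Mrc2, Col16a1, Col1a1, Col3a1 and Col6a1) and 0 lower (limma; 4 unadjusted).

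**Figure D2:**
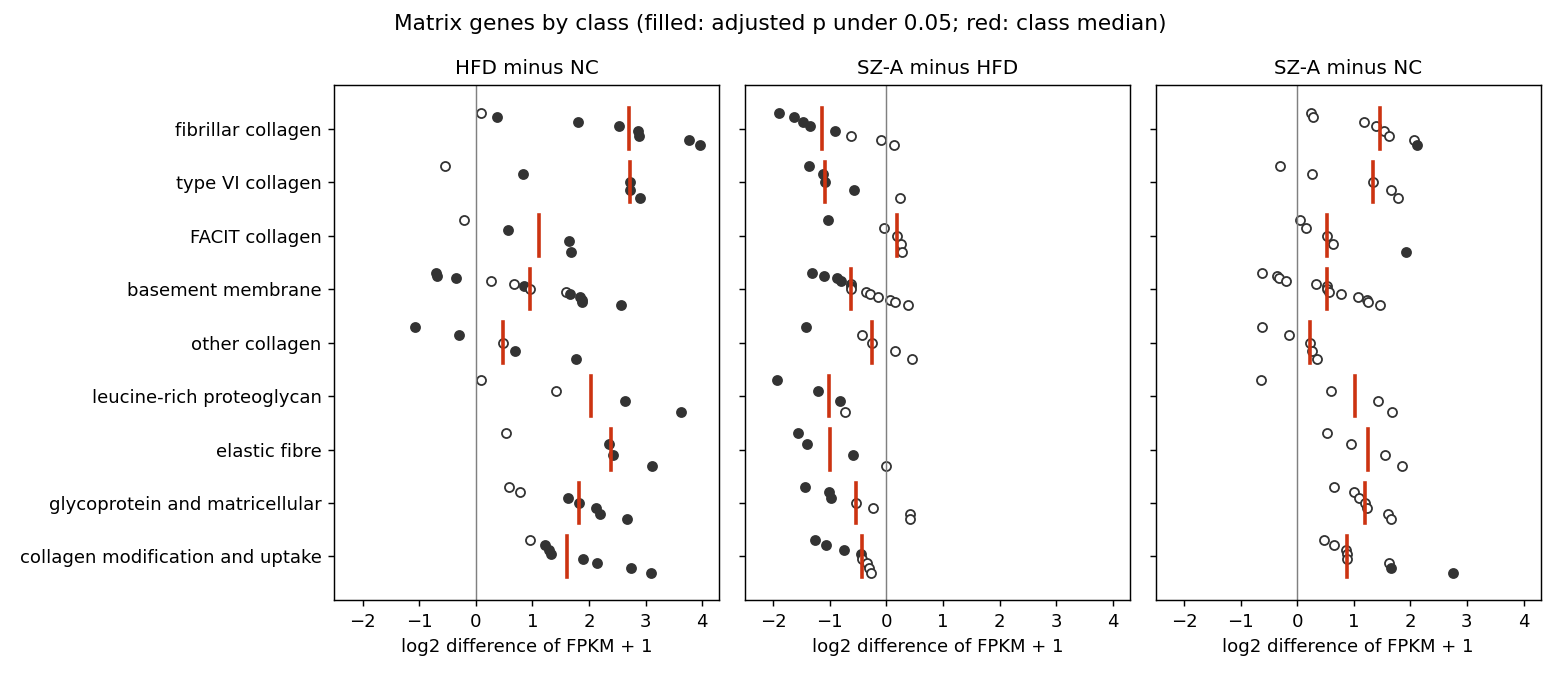
Difference of mean log2(FPKM + 1) for each member (points), by class, for HFD minus NC, SZ-A minus HFD and SZ-A minus NC; filled points had an adjusted p under 0.05 and red bars are class medians. Fibrillar and type VI chains have medians of 2.71 and 2.72 in HFD minus NC and of -1.13 and -1.08 in SZ-A minus HFD.

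Among the 8 fibrillar chains, 7 were higher in HFD mice and the median log2 difference was 2.71 (2.16 without NC replicate 6). Col3a1 and Col1a1 had the largest log2 differences of all members called. Col1a1, which encodes the main chain of type I collagen, ranged from 0.701 to 31.9 FPKM in NC (median 14.4), 105.1 to 201 FPKM in HFD (median 172.2) and 25.6 to 108.9 FPKM in SZ-A mice (median 57). All HFD mice were above all NC mice, and the log2 difference was 3.76 ± 0.52 (SE), adjusted p = 9.1e-05 (without NC replicate 6, 3.20 ± 0.26, adjusted p = 6.3e-07). Col3a1, the chain of type III collagen, had a median of 28 FPKM in NC (lowest 0.762, highest 53.8), 317.1 FPKM in HFD (197.8 to 423) and 76.9 FPKM in SZ-A mice (43.5 to 181.8). The groups did not overlap either, with a log2 difference of 3.96 ± 0.63 (SE), adjusted p = 0.00026 (without NC replicate 6, 3.26 ± 0.26, adjusted p = 5.8e-07). Col1a2, the partner chain in type I collagen, lay between 0.723 and 34 FPKM in NC, 89 and 151.8 FPKM in HFD, and 26.4 and 70.4 FPKM in SZ-A mice, with medians of 20.5, 100.8 and 41.2 FPKM. Its log2 difference was 2.88 ± 0.55 (SE), adjusted p = 0.00097.

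Type V chains seed and limit the growth of type I fibrils. Col5a2 ranged from 0.186 to 9.84 FPKM in NC (median 5.23), 28.8 to 46.4 FPKM in HFD (median 35.2) and 7.6 to 18.9 FPKM in SZ-A mice (median 14). It was higher by 2.87 ± 0.42 (SE), adjusted p = 0.00012, and Col5a1 by 2.54 ± 0.45 (SE), adjusted p = 0.00056, both without overlap. Col5a3 overlapped between the groups (log2 difference 1.81 ± 0.54 (SE), adjusted p = 0.017). The minor chains were low: Col27a1 did not exceed 1.12 FPKM in any mouse and rose by 0.38 ± 0.10 (SE), adjusted p = 0.0095, whereas Col11a2, known mostly from cartilage, was not called (0.098 ± 0.056 (SE), adjusted p = 0.17).

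Of the 5 type VI chains, Col6a1, Col6a2, Col6a3 and Col6a6 were called higher, and the class median was 2.72 (2.21 over 4 chains without NC replicate 6). Col6a3, the large chain whose end is cleaved off as endotrophin, had a median of 6.3 FPKM in NC (lowest 0.344, highest 11.8), 34.2 FPKM in HFD (24.7 to 44.4) and 12 FPKM in SZ-A mice (9.51 to 22.4). Its groups did not overlap and the log2 difference was 2.72 ± 0.42 (SE), adjusted p = 0.0002 (without NC replicate 6, 2.32 ± 0.27, adjusted p = 1.9e-05). Col6a1 ranged from 1.82 to 56.8 FPKM in NC (median 33.3), 121.4 to 195.1 FPKM in HFD (median 178.2) and 44.4 to 120 FPKM in SZ-A mice (median 78.7), and the log2 difference was 2.73 ± 0.55 (SE), adjusted p = 0.0015. Col6a2 lay between 0.478 and 28.4 FPKM in NC, 59 and 103.7 FPKM in HFD, and 22.5 and 58.8 FPKM in SZ-A mice, with medians of 13.1, 84.3 and 36 FPKM, with a difference of 2.90 ± 0.53 (SE), adjusted p = 0.00074. The call for Col6a6 came with overlap and a smaller difference, 0.84 ± 0.25 (SE), adjusted p = 0.015. Col6a4 behaved otherwise, at 10.7 FPKM in NC replicate 6 and 3.61 FPKM in the highest SZ-A mouse, against at most 0.112 FPKM in the HFD mice, and was not called (-0.55 ± 0.48 (SE), adjusted p = 0.38), while without NC replicate 6 it was too low to be tested.

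Basement membrane genes were divided. Of 13, 6 were higher, 3 lower and 4 not called in HFD mice, with a median log2 difference of 0.95. Col4a1, which with Col4a2 forms the common type IV network, ranged from 3.53 to 176 FPKM in NC (median 90), 165.4 to 293.8 FPKM in HFD (median 230.7) and 72 to 204 FPKM in SZ-A mice (median 118.4). The groups overlapped, and the difference was 1.87 ± 0.68 (SE), adjusted p = 0.04, or without NC replicate 6, 1.12 ± 0.28, adjusted p = 0.0054. Col4a2 gave 1.87 ± 0.64 (SE), adjusted p = 0.031, or without NC replicate 6, 1.17 ± 0.29, adjusted p = 0.005. The call for Col4a1 was lost without NC replicate 1 (adjusted p = 0.069, limma) and without any single HFD mouse (adjusted p from 0.052 to 0.068), and that for Col4a2 without NC replicate 1 or HFD replicate 4, 5, 6 or 7 (adjusted p from 0.052 to 0.057, limma). Col15a1, a collagen at the outer face of basement membranes, lay between 1.0 and 26.3 FPKM in NC, 35.2 and 73.9 FPKM in HFD, and 11.6 and 51.4 FPKM in SZ-A mice, with medians of 9.57, 63.2 and 31 FPKM. It was higher without overlap (2.57 ± 0.47 (SE), adjusted p = 0.00073).

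Laminins differed by chain. Lama2, the alpha chain of a laminin typical of muscle and stroma, had a median of 2.17 FPKM in NC (lowest 0.063, highest 5.05), 9.77 FPKM in HFD (8.7 to 10.8) and 3.56 FPKM in SZ-A mice (0.839 to 4.87). The HFD mice lay in a narrow band above both other groups, and the difference was 1.84 ± 0.30 (SE), adjusted p = 0.00028. Lamc1, the gamma chain shared by most laminins, ranged from 3.21 to 43.5 FPKM in NC (median 25.9), 58.3 to 70.6 FPKM in HFD (median 63.8) and 11.4 to 50.2 FPKM in SZ-A mice (median 39.8) (log2 difference 1.66 ± 0.43 (SE), adjusted p = 0.0079). Lama4, the alpha chain of adipocyte and capillary laminin, was not called (0.68 ± 0.52 (SE), adjusted p = 0.31), nor were Lamb1 (0.95 ± 0.48 (SE), adjusted p = 0.13), Nid1, the linker between laminin and type IV collagen (1.60 ± 0.76 (SE), adjusted p = 0.11), and Col4a5 (0.27 ± 0.25 (SE), adjusted p = 0.4). Their log2 differences without NC replicate 6 came to 0.12 for Lama4, 0.42 for Lamb1, 0.75 for Nid1 and 0.046 for Col4a5, none of them called.

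The other type IV chains went the other way at low levels. Col4a3 and Col4a4, which share the start interval shown above and form the network of the kidney filter, were both lower in HFD than in any NC mouse. Col4a4 lay between 0.459 and 2.07 FPKM in NC, 0.0489 and 0.317 FPKM in HFD, and 0.0946 and 1.8 FPKM in SZ-A mice, with medians of 0.818, 0.151 and 0.412 FPKM, a log2 difference of -0.70 ± 0.14 (SE), adjusted p = 0.0012. Col4a3 differed by -0.35 ± 0.086 (SE), adjusted p = 0.0052, and Col4a6 by -0.68 ± 0.22 (SE), adjusted p = 0.026 with overlap, a call lost without NC replicate 2 or 5 or HFD replicate 1 or 5 (adjusted p from 0.052 to 0.061, limma). Without NC replicate 6 the groups did not overlap for Col4a6 (-0.89 ± 0.15 (SE), adjusted p = 0.00037, limma). Epithelia are a known site of these chains, and the 5 epithelial markers were also lower in HFD mice. What part epithelium had in these differences was not tested. With the epithelial score as a covariate the log2 difference of Col4a4 was -0.72 (adjusted p = 0.1) and that of Col4a3 -0.37 (adjusted p = 0.18).

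FACIT chains sit on the surface of fibrils. Col14a1 ranged from 1.99 to 5.06 FPKM in NC (median 3.26), 9.47 to 17.1 FPKM in HFD (median 12.6) and 3.61 to 10.6 FPKM in SZ-A mice (median 4.78), and Col16a1 had a median of 1.55 FPKM in NC (lowest 1.01, highest 2.25), 6.94 FPKM in HFD (4.4 to 10.3) and 8.91 FPKM in SZ-A mice (5.17 to 13.8). Neither gene overlapped between NC and HFD, and they were among the 4 members still higher with the epithelial covariate. Their log2 differences were 1.68 ± 0.18 (SE), adjusted p = 1e-05 and 1.65 ± 0.18 (SE), adjusted p = 1e-05. Col12a1 lay between 0.144 and 1.46 FPKM in NC, 0.744 and 2.32 FPKM in HFD, and 0.292 and 2.64 FPKM in SZ-A mice, with medians of 0.582, 1.42 and 1.56 FPKM, with a small call (0.57 ± 0.17 (SE), adjusted p = 0.018). Col20a1 ranged from 0.227 to 0.868 FPKM in NC (median 0.478), 0.189 to 0.395 FPKM in HFD (median 0.299) and 0.169 to 1.62 FPKM in SZ-A mice (median 0.415) and was not called (-0.21 ± 0.085 (SE), adjusted p = 0.063). Without NC replicate 6 it was called lower, with no overlap (-0.27 ± 0.077 (SE), adjusted p = 0.013, limma). Col9a3, a cartilage chain, had a highest value of 0.838 FPKM in SZ-A replicate 5 and was too low to be tested between HFD and NC.

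Of the other collagens, Col8a1, a short chain of vessel walls, had a median of 1.44 FPKM in NC (lowest 0.0175, highest 4.18), 7.71 FPKM in HFD (3.07 to 13.6) and 2.02 FPKM in SZ-A mice (0.834 to 3.84). It was higher by 1.76 ± 0.37 (SE), adjusted p = 0.0018. Col28a1 lay between 0.645 and 1.36 FPKM in NC, 0.675 and 3.53 FPKM in HFD, and 0.322 and 2.21 FPKM in SZ-A mice, with medians of 0.864, 2.06 and 1.41 FPKM and differed by 0.69 ± 0.20 (SE), adjusted p = 0.015. Col7a1, the anchoring fibril chain of skin, and Col23a1, a membrane-bound collagen, were lower. Col23a1 ranged from 0.478 to 10 FPKM in NC (median 2.45), 0.407 to 1.32 FPKM in HFD (median 0.815) and 0.575 to 3.43 FPKM in SZ-A mice (median 1.75), with a difference of -1.08 ± 0.40 (SE), adjusted p = 0.043, and Col7a1 had a median of 0.265 FPKM in NC (lowest 0.0726, highest 0.694), 0.073 FPKM in HFD (0.0383 to 0.139) and 0.143 FPKM in SZ-A mice (0.0478 to 0.544) (-0.29 ± 0.095 (SE), adjusted p = 0.026). Among the fits that each left out a mouse, the Col23a1 call held only without NC replicate 3 or 6 (adjusted p from 0.051 to 0.098 in the others, limma). The Col7a1 call held in 12 of 13 such fits and was lost only without NC replicate 1 (adjusted p = 0.060, limma). Without NC replicate 1, 2 or 5, or HFD replicate 1 or 5, 3 members in all were called lower.

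Small leucine-rich proteoglycans bind collagen fibrils and set their spacing. Lum ranged from 0.336 to 33.7 FPKM in NC (median 13.9), 86 to 252.1 FPKM in HFD (median 130.9) and 24 to 58.1 FPKM in SZ-A mice (median 28.2). The 7 HFD mice were all above the NC mice, and the log2 difference was 3.62 ± 0.60 (SE), adjusted p = 0.00033 (without NC replicate 6, 3.01 ± 0.33, adjusted p = 1.1e-05). Bgn had a median of 34.6 FPKM in NC (lowest 2.94, highest 62.9), 148.2 FPKM in HFD (125.4 to 290.4) and 67 FPKM in SZ-A mice (57.8 to 105.8), a difference of 2.64 ± 0.51 (SE), adjusted p = 0.0011. Dcn, the most abundant of the 4 in these data, lay between 6.18 and 415.4 FPKM in NC, 237.9 and 435.4 FPKM in HFD, and 83.9 and 278.8 FPKM in SZ-A mice, with medians of 185.3, 282.7 and 213.6 FPKM and was not called (1.42 ± 0.73 (SE), adjusted p = 0.14), and neither was Fmod (0.094 ± 0.28 (SE), adjusted p = 0.81). Without NC replicate 6 the differences were 0.61 for Dcn and -0.12 for Fmod, still not called. The ratio of Lum to Dcn within a mouse had medians of 0.0794, 0.434 and 0.193 for NC, HFD and SZ-A.

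Among elastic fibre genes, Fbn1, the fibrillin of microfibrils, had a median of 5.34 FPKM in NC (lowest 0.0962, highest 11.5), 37.7 FPKM in HFD (28.5 to 55.3) and 12.7 FPKM in SZ-A mice (9.05 to 22.9). It was higher without overlap by 3.12 ± 0.46 (SE), adjusted p = 0.00014 (without NC replicate 6, 2.69 ± 0.31, adjusted p = 1.6e-05). In the annotation 20.1% of the exon length of Fbn1 is also exon of Gm9913 on the opposite strand, and whether reads were counted by strand was not given in the sources used here. Fbln1 lay between 0.11 and 10.8 FPKM in NC, 19.1 and 31.7 FPKM in HFD, and 4.34 and 12.7 FPKM in SZ-A mice, with medians of 5.99, 26.6 and 8.86 FPKM and Fbln2 ranged from 0.495 to 42.2 FPKM in NC (median 17.4), 59.2 to 89.7 FPKM in HFD (median 73.2) and 40.4 to 59 FPKM in SZ-A mice (median 43.6). These fibulins, which bridge microfibrils and basement membranes, were higher by 2.36 ± 0.44 (SE), adjusted p = 0.00088 and 2.43 ± 0.59 (SE), adjusted p = 0.0052. Elastin itself (Eln) was not called (0.53 ± 0.56 (SE), adjusted p = 0.47), and its difference was -0.013 without NC replicate 6.

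The adhesive and matricellular proteins were mixed. Fn1, the fibronectin on which collagen is laid down, ranged from 2.74 to 42 FPKM in NC (median 16.7), 70.7 to 116.7 FPKM in HFD (median 89) and 16.1 to 61.4 FPKM in SZ-A mice (median 32.5), a difference of 2.66 ± 0.46 (SE), adjusted p = 0.00049. Vcan, a large proteoglycan of provisional matrix, lay between 0.123 and 1.84 FPKM in NC, 3.3 and 5.65 FPKM in HFD, and 1.2 and 2.84 FPKM in SZ-A mice, with medians of 0.663, 4.29 and 1.42 FPKM (1.63 ± 0.18 (SE), adjusted p = 9.9e-06). Tnxb had a median of 7.88 FPKM in NC (lowest 0.551, highest 22.6), 35 FPKM in HFD (25.5 to 45.6) and 20.6 FPKM in SZ-A mice (16.1 to 38.4) and was higher by 2.19 ± 0.47 (SE), adjusted p = 0.0024. Postn, a periostin that binds collagen and promotes its cross-linking, ranged from 1.12 to 35.9 FPKM in NC (median 17.5), 44 to 115 FPKM in HFD (median 50.1) and 21.3 to 41.2 FPKM in SZ-A mice (median 29.2) (2.12 ± 0.52 (SE), adjusted p = 0.0057). Sparc, a collagen-binding protein of the secretory route, was the highest member of all. It lay between 21.4 and 722.9 FPKM in NC, 643.3 and 1467 FPKM in HFD, and 552.7 and 1327 FPKM in SZ-A mice, with medians of 443.2, 1114 and 878.3 FPKM. Its groups overlapped and the difference was 1.83 ± 0.67 (SE), adjusted p = 0.041, a call that was lost without NC replicate 1 or 2 and without any HFD mouse from replicate 2 to 7 (adjusted p from 0.056 to 0.070, limma). Its difference was 1.09 without NC replicate 6, and still called. Thbs1 had a median of 102.6 FPKM in NC (lowest 1.22, highest 179), 82.2 FPKM in HFD (41.3 to 123.9) and 104.6 FPKM in SZ-A mice (58.5 to 215.7) and was not called (0.59 ± 0.83 (SE), adjusted p = 0.6). Without NC replicate 6 its sign turned (log2 difference -0.32). Thbs2 was not called either (0.78 ± 0.58 (SE), adjusted p = 0.3, or 0.15 without that mouse).

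Of the 8 genes for collagen modification and uptake, 7 were higher in HFD mice. Mrc2, the collagen uptake receptor, had a median of 2.02 FPKM in NC (lowest 0.257, highest 2.98), 23.1 FPKM in HFD (15.6 to 29.3) and 16.9 FPKM in SZ-A mice (10.3 to 23.5). Every HFD mouse was above every NC mouse and the log2 difference was 3.10 ± 0.24 (SE), adjusted p = 5.1e-07 (without NC replicate 6, 2.88 ± 0.17, adjusted p = 5.1e-08). Among lysyl oxidases, Loxl1 ranged from 1.17 to 24.3 FPKM in NC (median 9.42), 42.7 to 79.8 FPKM in HFD (median 57.5) and 21.6 to 44.1 FPKM in SZ-A mice (median 27.9) and Loxl2 lay between 0.165 and 9.55 FPKM in NC, 12.9 and 22.9 FPKM in HFD, and 4.57 and 9.81 FPKM in SZ-A mice, with medians of 2.74, 14.7 and 5.26 FPKM. Both were higher without overlap, by 2.74 ± 0.42 (SE), adjusted p = 0.00019 and 2.15 ± 0.37 (SE), adjusted p = 0.00048. Loxl3 had a median of 1.26 FPKM in NC (lowest 0.89, highest 2.27), 4.38 FPKM in HFD (3.85 to 5.13) and 1.86 FPKM in SZ-A mice (1.51 to 4.88), with a difference of 1.23 ± 0.14 (SE), adjusted p = 1.5e-05, and 11.6% of its exon length is shared with Htra2 on the opposite strand. Lox ranged from 0.813 to 44.2 FPKM in NC (median 31.4), 28 to 52 FPKM in HFD (median 42.3) and 17.1 to 43.6 FPKM in SZ-A mice (median 33.4) and was not called (0.97 ± 0.61 (SE), adjusted p = 0.22, or 0.27 without NC replicate 6). Serpinh1, the chaperone of newly made collagen, lay between 6.24 and 114.4 FPKM in NC, 150.7 and 245.2 FPKM in HFD, and 74 and 252.6 FPKM in SZ-A mice, with medians of 77.5, 207.3 and 171.1 FPKM (1.89 ± 0.53 (SE), adjusted p = 0.011). P4ha1, which hydroxylates proline, rose by 1.33 ± 0.33 (SE), adjusted p = 0.0065, and Plod2, which hydroxylates lysine, by 1.30 ± 0.29 (SE), adjusted p = 0.0031.

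**Figure D3:**
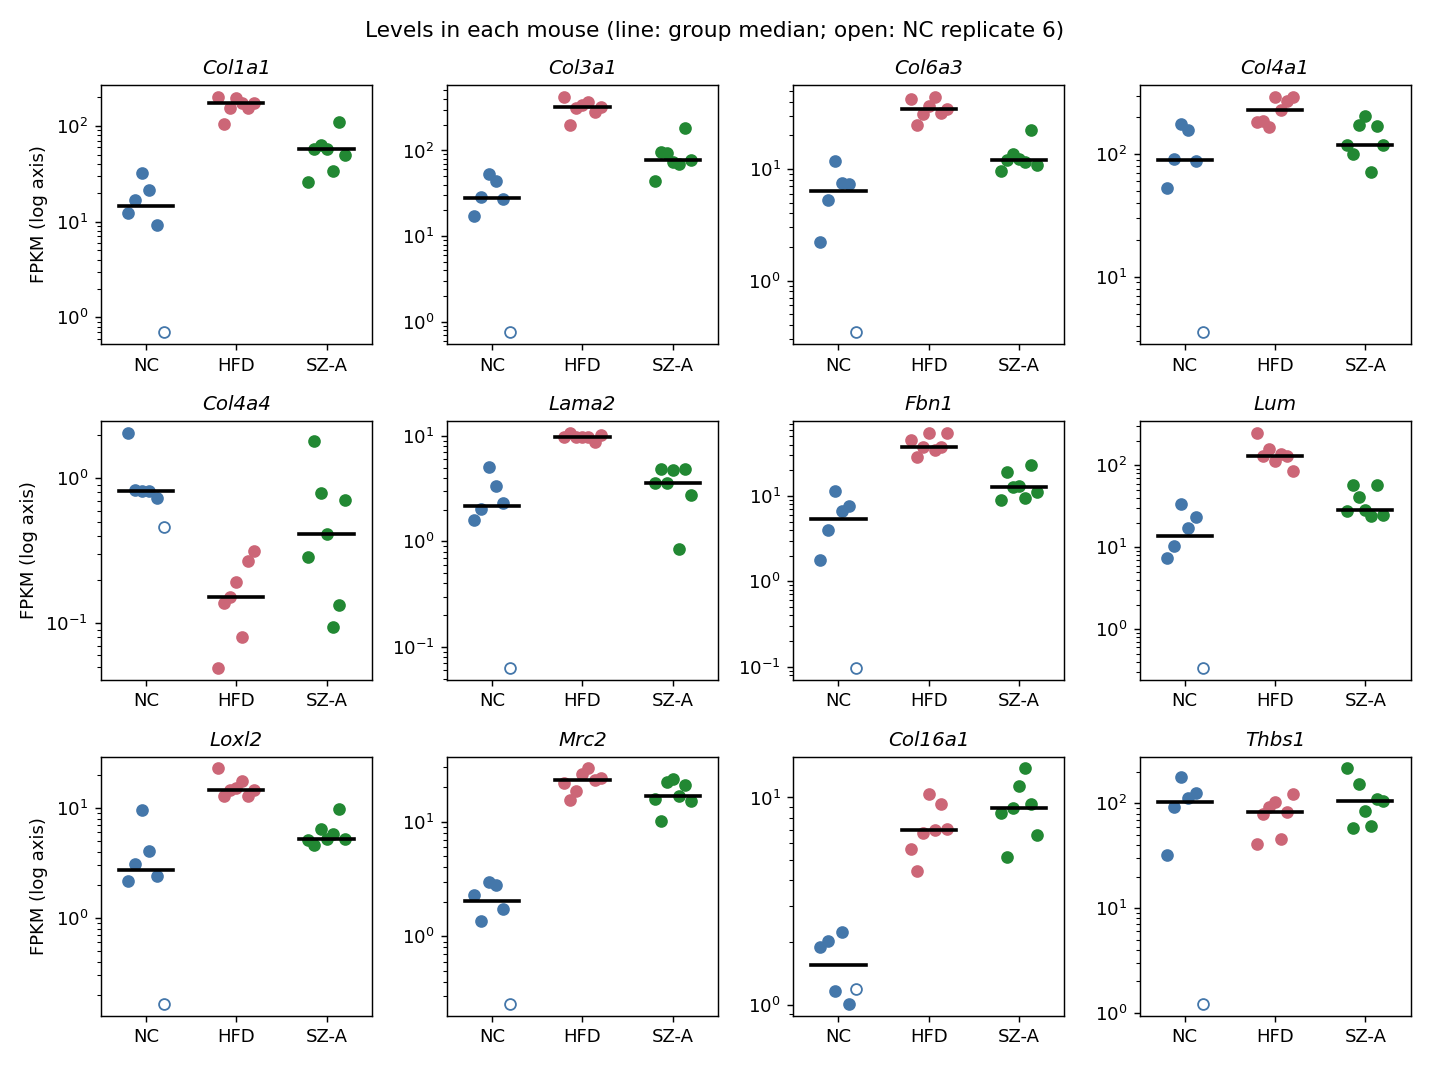
Levels in FPKM (log axis) of 12 members in each mouse of the NC, HFD and SZ-A groups, with group medians as lines and NC replicate 6 open. For Col3a1 the NC mice lie between 0.762 and 53.8, the HFD mice between 197.8 and 423, and the SZ-A mice between 43.5 and 181.8.

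The second comparison asked what differed when SZ-A was given on top of the fat-rich feed. About as many matrix genes were lower in the treated mice as were not called. Of 59 members, 29 were called lower, 30 were not called and 0 were higher (limma; 3 at an unadjusted p under 0.05, and 0 by voom), against 13.3% of 14695 genes lower and 9.47% higher. The groups did not overlap in 17 members, all SZ-A mice lying beneath all HFD mice, which was the case for 4.01% of all genes. With a log2 difference beyond 1.5 required, 4 members were called (Lum, Col3a1, Col1a1 and Fbn1), against 0.558% of all genes. The median log2 difference was -0.62 over the members and 0.031 over all genes. With the epithelial score as a covariate 27 members were lower and 1 higher (Thbs2). The calls for Col4a1 (adjusted p = 0.057, limma), Col6a6 (0.061) and Plod2 (0.12) were then lost. Fmod was called lower with the covariate (-1.57, adjusted p = 0.0018, limma) and not without it (-0.74, adjusted p = 0.22). With all 3 groups in a single fit 15 members were lower. This comparison shares its HFD mice with the first, so the 2 sets of differences are not independent.

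Fibrillar chains were lower by a median of 1.13 on the log2 scale, with 5 of 8 called. Col3a1 was lower by 1.89 ± 0.25 (adjusted p = 0.00038), Col1a1 by 1.63 ± 0.26 (adjusted p = 0.00095), Col5a2 by 1.48 ± 0.17 (adjusted p = 0.0003), Col1a2 by 1.35 ± 0.19 (adjusted p = 0.00059) and Col5a1 by 0.91 ± 0.18 (adjusted p = 0.0038). The highest SZ-A mouse for Col3a1, at 181.8 FPKM, was below the lowest HFD mouse at 197.8 FPKM. For Col1a1 a single SZ-A mouse, replicate 6 at 109 FPKM, exceeded the lowest HFD mouse, replicate 2 at 105 FPKM. Col5a3, Col27a1 and Col11a2 were not called.

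Type VI chains followed a like pattern, with 4 of 5 called. Col6a3 was lower by 1.37 ± 0.17 (adjusted p = 0.0003), Col6a2 by 1.12 ± 0.21 (adjusted p = 0.0026) and Col6a1 by 1.08 ± 0.21 (adjusted p = 0.0028), each without overlap. Col6a6 was lower by 0.58 ± 0.20 (adjusted p = 0.047) with overlap, a call that held in only 4 of 14 fits that each left out a mouse, namely HFD replicate 5 or SZ-A replicate 2, 3 or 4 (adjusted p from 0.056 to 0.089 in the others, limma). SZ-A replicate 6 had 22.4 FPKM of Col6a3, apart from the others of its group, whose median was 12 FPKM, but below the lowest HFD mouse (24.7 FPKM).

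Basement membrane genes were lower in 5 of 13 cases, with a median of -0.62. Lama2 was lower by 1.32 ± 0.21 (adjusted p = 0.0011) and did not overlap, although SZ-A replicate 5 at 0.839 FPKM was far below the rest. Lamc1 was lower by 0.88 ± 0.24 (adjusted p = 0.019), Col15a1 by 1.10 ± 0.27 (adjusted p = 0.011), Col4a1 by 0.80 ± 0.23 (adjusted p = 0.021) and Col4a5 by 0.63 ± 0.21 (adjusted p = 0.039). The Col4a5 call held in 5 of 14 such fits, those without HFD replicate 1 or SZ-A replicate 2, 5, 6 or 7 (adjusted p from 0.056 to 0.075 in the others, limma). Col4a2 just missed the threshold (-0.63 ± 0.22 (SE), adjusted p = 0.052), as did Lamb1 (-0.62 ± 0.22 (SE), adjusted p = 0.055). Col18a1, which releases endostatin, and Lama4 and Nid1 were not called. Col4a3, Col4a4 and Col4a6, low in HFD, were not called higher in SZ-A mice (Col4a4 0.39 ± 0.17 (SE), adjusted p = 0.11).

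Lum had the largest difference of all members, with 86 to 252.1 FPKM in HFD and 24 to 58.1 FPKM in SZ-A mice, lower by 1.94 ± 0.25 (adjusted p = 0.00037). Bgn was lower by 1.21 ± 0.18 (adjusted p = 0.00081) without overlap. Dcn was lower by 0.82 ± 0.25 (adjusted p = 0.029), a call that went when HFD replicate 1, 2 or 3 or SZ-A replicate 7 was left out (adjusted p from 0.058 to 0.063, limma). In the elastic fibre class, Fbn1 was lower by 1.56 ± 0.21 (adjusted p = 0.00037), Fbln1 by 1.40 ± 0.19 (adjusted p = 0.00038) and Fbln2 by 0.58 ± 0.13 (adjusted p = 0.006), while Eln was not called (0.0007 ± 0.25 (SE), adjusted p = 1). Among glycoproteins Fn1 was lower by 1.43 ± 0.22 (adjusted p = 0.00092), Postn by 1.02 ± 0.21 (adjusted p = 0.0041) and Vcan by 0.97 ± 0.14 (adjusted p = 0.00069), all without overlap. Tnxb was not called (-0.53 ± 0.19 (SE), adjusted p = 0.058), but it was without SZ-A replicate 5 (adjusted p = 0.012, limma) or replicate 6 (adjusted p = 0.029). Sparc (-0.23 ± 0.24 (SE), adjusted p = 0.49), Thbs1 (0.42 ± 0.31 (SE), adjusted p = 0.33) and Thbs2 (0.41 ± 0.18 (SE), adjusted p = 0.12) were not called.

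Genes for collagen modification split in this comparison. Loxl2 was lower by 1.27 ± 0.15 (adjusted p = 0.0003) without overlap, Loxl1 by 1.08 ± 0.18 (adjusted p = 0.0012), Loxl3 by 0.75 ± 0.17 (adjusted p = 0.0061) and Plod2 by 0.44 ± 0.15 (adjusted p = 0.045). The Plod2 call held in 2 of 14 fits, those without HFD replicate 4 or SZ-A replicate 6 (adjusted p from 0.053 to 0.095 in the others, limma), and was lost with the epithelial covariate (adjusted p = 0.12). The chaperone Serpinh1 (-0.28 ± 0.23 (SE), adjusted p = 0.39), P4ha1 (-0.44 ± 0.24 (SE), adjusted p = 0.19), Lox (-0.31 ± 0.20 (SE), adjusted p = 0.26) and the uptake receptor Mrc2 (-0.35 ± 0.18 (SE), adjusted p = 0.16) were not called. Of the FACIT chains only Col14a1 was called, lower by 1.04 ± 0.20 (adjusted p = 0.0027), while Col16a1 had 0.28 ± 0.20 (SE), adjusted p = 0.31. Col8a1 was the only other collagen called, lower by 1.41 ± 0.25 (adjusted p = 0.002).

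Cell type markers were read beside these differences, against the shares of all genes called, which were 21.0% higher and 20.1% lower in HFD against NC and 9.47% higher and 13.3% lower in SZ-A against HFD. Macrophage markers were higher in HFD than in NC mice in 10 of 10 cases and in 10 of 10 the SZ-A mice were lower than the HFD mice. Summed, they reached 80.6 to 804.5 FPKM (NC), 3419 to 9211 (HFD) and 1400 to 4688 (SZ-A). Of 11 fibroblast and progenitor markers, 8 were higher and 1 lower in HFD mice, and 7 were lower in SZ-A mice. Their summed levels were 185.5 to 4334, 2208 to 4291 and 1652 to 5581 FPKM. Most of that sum was Gsn (means of 2426, 2715 and 3058 FPKM), which was not called between HFD and NC. Of 10 adipocyte markers, 1 was higher and 2 lower in HFD, and 2 were higher in SZ-A mice. Their summed levels were 487.9 to 22332, 1420 to 6177 and 4320 to 14115 FPKM. The largest part in NC was Cfd, with means of 6851, 233.8 and 1535 FPKM in the 3 groups. None of the 8 endothelial markers was called between HFD and NC, and SZ-A mice were above HFD mice for 2, at 20.9 to 575.2, 101.7 to 443.2 and 212.8 to 894.5 FPKM. Of 8 smooth muscle and pericyte markers, 1 was higher and 3 lower in HFD mice, and 1 was higher and 1 lower in SZ-A mice, at 53.4 to 1454, 81.7 to 361.5 and 169.2 to 720.1 FPKM. All 4 cell cycle genes were higher in HFD and lower in SZ-A mice, from 1.5 to 3.97, 13.5 to 25.2 and 3.27 to 12.6 FPKM. Of 5 mesothelial markers 1 was in the table, and it was not called. None of the 14776 deposited genes was at 0 in any mouse, so this held for every marker analysed and says nothing of which cells were present. What part these cells had in the matrix differences was not tested.

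The make-up of the collagen message was described in each mouse. Reads on the 59 members took 0.0694% to 1.56% of all reads in NC (at least 0.525% without replicate 6), 2.28% to 2.94% in the HFD group and 0.928% to 2.0% in the SZ-A group. The summed collagen level had medians of 347, 1616 and 656.8 FPKM in these groups. Fibrillar chains gave 8.41% to 27.6% of this sum for NC, 41.2% to 54.3% for HFD and 27.2% to 44.1% for SZ-A, so NC and HFD did not overlap. The type IV share had medians of 44.6%, 27.6% and 36.4%, although the levels of Col4a1 and Col4a2 were themselves higher in HFD mice, since a share falls where other chains rise more. In NC replicate 6 the type IV share was 18.1%, under the lowest HFD mouse at 18.6%, and without it the NC range was 39.6% to 51.4%. Type VI chains had medians of 16.5%, 19.0% and 19.2%, and HFD and SZ-A mice overlapped. Their share was 30.8% in NC replicate 6, where Col6a4 alone gave 10.7 of the 43.4 FPKM summed over collagens and Col6a1 gave 1.82. The fibrillar and type IV shares of that mouse were taken from the same sum. In the other NC mice the type VI share was 13.9% to 16.6%, against 18.4% to 20% in HFD mice.

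**Figure D4:**
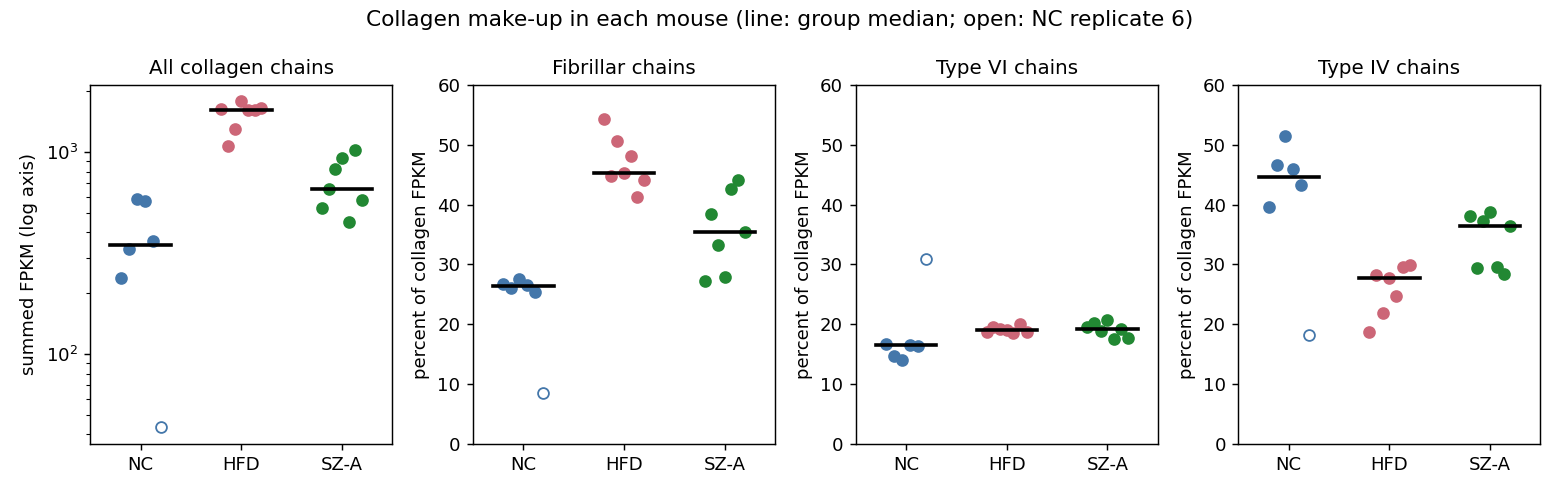
Summed FPKM of all collagen chains (log axis) and the percent of it in fibrillar, type VI and type IV chains for each mouse by group; lines are group medians and NC replicate 6 is open. The fibrillar share has medians of 26.3%, 45.2% and 35.5% in NC, HFD and SZ-A order, and the type IV share of 44.6%, 27.6% and 36.4%.

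Ratios to Col4a1 within each mouse were chosen after the values had been seen, from chains with large differences, so they are a description of these 4 genes with no test and say nothing of the basement membrane class, in which Col15a1 and Lama2 also differed widely. The ratio of Col1a1 to Col4a1 ranged from 0.104 to 0.228 in NC (median 0.182), from 0.562 to 1.11 in HFD (median 0.664) and from 0.216 to 0.637 in SZ-A mice (median 0.419). On the log2 scale it was 2.10 ± 0.22 (SE) higher in HFD than in NC, and SZ-A minus HFD was -0.85 ± 0.25. The ratio of Col3a1 to Col4a1 ran from 0.216 to 0.321 among NC, 1.04 to 2.34 among HFD and 0.364 to 1.06 among SZ-A mice. For Col6a3 over Col4a1 the ranges were 0.0413 to 0.0975, 0.116 to 0.233 and 0.0599 to 0.160. Between HFD and NC none of the 3 ratios overlapped. In NC replicate 6 the ratio of Col1a1 lay within the range of the other NC mice, that of Col3a1 was the lowest of the group and that of Col6a3 the highest, and without it the log2 differences between HFD and NC were 2.15, 2.17 and 1.4.

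**Figure D5:**
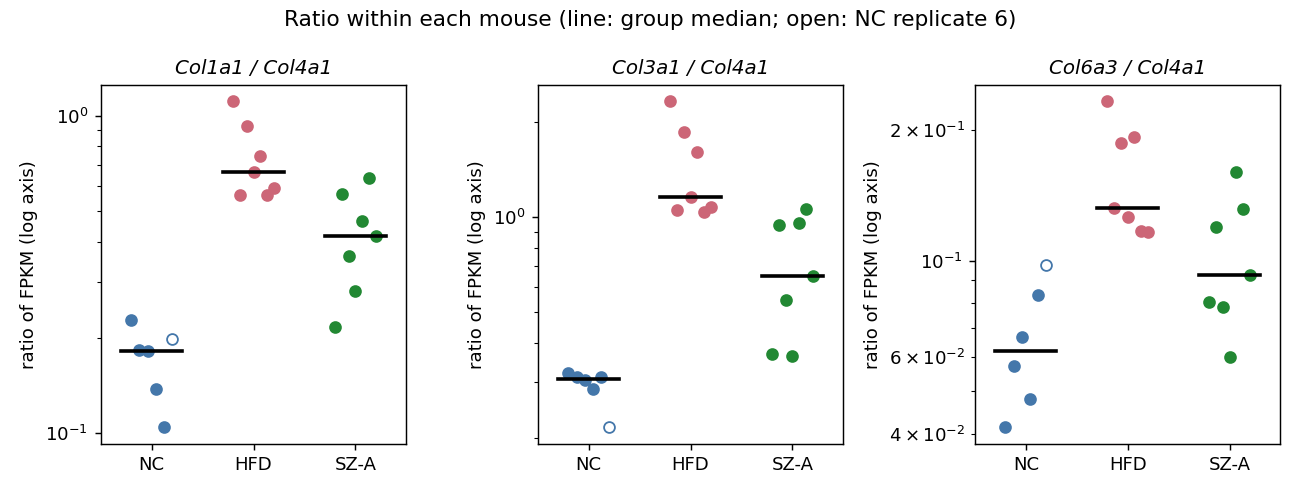
Ratio of Col1a1, Col3a1 and Col6a3 to Col4a1 in FPKM (log axis) within each mouse, by group, with medians as lines and NC replicate 6 open. For Col3a1 the 7 HFD mice lie between 1.04 and 2.34 and the 6 NC mice between 0.216 and 0.321.

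Ratios between chains that assemble together were also described. Col4a1 over Col4a2 had medians of 1.52, 1.49 and 1.31 for NC, HFD and SZ-A, and Col6a1 over Col6a2 had medians of 2.39, 1.96 and 2.02. Col1a1 over Col1a2, which combine in type I collagen, had medians of 0.919, 1.57 and 1.3, with 0.367 to 0.978 in NC and 1.18 to 1.74 in HFD mice, so these groups did not overlap. Col3a1 over Col1a1 had medians of 1.70, 1.88 and 1.67 with overlapping ranges. These ratios were not tested.

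The third comparison set SZ-A mice against NC mice. Of 59 members, 4 were called higher and 0 lower (1 at an unadjusted p under 0.05 and 0 by voom), against 4.15% and 0.455% of 14718 genes. The 4 were Mrc2 (2.75 ± 0.27 (SE), adjusted p = 0.00021), Col1a1 (2.13 ± 0.56 (SE), adjusted p = 0.048), Col16a1 (1.93 ± 0.20 (SE), adjusted p = 0.00021) and Loxl1 (1.66 ± 0.42 (SE), adjusted p = 0.038). Mrc2 and Col16a1 did not overlap between the groups, with SZ-A levels of 10.3 to 23.5 and 5.17 to 13.8 FPKM against NC levels of at most 2.98 and 2.25 FPKM. Col5a1 did not overlap either but was not called (1.63 ± 0.47 (SE), adjusted p = 0.065). Fibrillar chains had a median log2 difference of 1.46, type VI chains of 1.35 and basement membrane genes of 0.53, against -0.0012 over all genes.

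This count rested on single mice. Without NC replicate 6, 10 members were called higher, against 4.63% of all genes, and without NC replicate 3, 13 were. Without NC replicate 1, 2 or 5 or any of SZ-A replicates 3 to 7 the count was 2. The calls that came and went included Col1a1 (adjusted p from 0.019 to 0.11, limma, over the mice left out) and Loxl1 (0.013 to 0.092), whereas Mrc2 and Col16a1 were called with each mouse left out and with the epithelial covariate (log2 differences of 2.29 and 1.68). With all 3 groups in a single fit 20 members were called higher. The medians of the classes without NC replicate 6 were 0.94, 0.95 and 0.23.

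Mrc2 and Col16a1 were thus higher with the fat-rich feed in both comparisons with NC, which share their NC mice, and neither was called between SZ-A and HFD. Their log2 differences for HFD, set beside those for SZ-A, were 3.10 and 2.75 for Mrc2 and 1.65 and 1.93 for Col16a1.

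The genes most like 3 members over the 20 mice were listed by Pearson's r of log2(FPKM + 1), a description in which group differences and NC replicate 6 enter every value. For Col4a1 they were Col4a2 (0.995), Map4k4 (0.976) and Pkd2 (0.970). For Col6a3 they were Col5a2 (0.988), Col3a1 (0.985) and Fmnl1 (0.985). Lum was followed most closely by Antxr1 (0.981), Col1a2 (0.981) and Vwa5a (0.980). Over the 19 mice without NC replicate 6, Col4a2 was still first for Col4a1 (0.981), and Col3a1 and Col5a2 were first for Col6a3 (0.981 each).

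Matrix genes outside the members were counted in 4 lists, to be read against the same shares of all genes (21.0% higher and 20.1% lower in HFD against NC, 9.47% higher and 13.3% lower in SZ-A against HFD). Of 26 tested genes for collagen processing and collagen receptors, 15 were higher and 2 lower in HFD mice, and with SZ-A 11 fell and 1 rose against HFD. Pcolce, which speeds the trimming of procollagen, was lower in SZ-A mice by 1.21 ± 0.18 (adjusted p = 0.00072), Colgalt1 by 1.02 ± 0.17 (adjusted p = 0.0014), Bmp1, the trimming enzyme, by 0.70 ± 0.13 (adjusted p = 0.0025), and Adamts2 by 0.95 ± 0.18 (adjusted p = 0.0026). Of 20 other leucine-rich proteoglycans and fibre proteins, 9 were higher in HFD and 9 lower in SZ-A mice. Fbln7 was lower by 1.66 ± 0.25 (adjusted p = 0.00081), Mfap5 by 1.21 ± 0.19 (adjusted p = 0.0009), Mfap2 by 1.18 ± 0.15 (adjusted p = 0.0003) and Aspn by 0.79 ± 0.17 (adjusted p = 0.0049). Among 15 other matricellular genes, 8 were higher in HFD, and in SZ-A mice 9 were lower and 1 higher. Spp1, osteopontin, was lower by 2.30 ± 0.46 (adjusted p = 0.0035), with a mean of 114.1 ± 75.7 FPKM (SD, n = 7) in HFD and 23.2 ± 15 in SZ-A mice, and Mgp was lower by 1.55 ± 0.30 (adjusted p = 0.0027).

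Of 16 other basement membrane genes tested, 3 were higher and 4 lower in HFD mice, near the shares of all genes, and with SZ-A Lamb3 rose and Dag1 fell against HFD. The median log2 difference of this list was 0.055 in HFD against NC and 0.24 in SZ-A against HFD. In the first 3 lists the medians were 1.05, 1.17 and 1.17 in HFD against NC and -0.28, -0.54 and -0.59 in SZ-A against HFD.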

How the data were processed

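Values were the FPKM (fragments scaled to exon length and library size) that the authors deposited for 14776 genes in 20 eWAT samples. The labels give 6 samples for NC and 7 each for HFD and SZ-A, while the paper's results state 7 per group for sequencing. The authors sequenced poly(A) RNA, aligned reads to GRCm38 with HISAT2 and, per the submitters' processing notes, counted with featureCounts 1.5.0-p3. Which annotation release and gene filter they used was not given in the sources used here. Of the rows, 14770 were found in GENCODE M21. From FPKM and exon length the reads per mouse were recovered, and 95.9% to 96.3% of values under 1000 reads were whole within 0.01 reads. They served only for depth and a voom alternative.

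Groups were compared on log2(FPKM + 1), which understates changes of low genes, keeping genes whose mean over the compared mice reached 0.1 FPKM (limma 3.58.1 in R 4.3.3, lmFit and eBayes with trend, Benjamini-Hochberg over all genes tested, threshold 0.05). A log2 limit of 1.5 was added for a stricter count. Exact permutation tests had been planned for genes whose groups do not overlap, but such a split fixes p at its smallest value, so none is given. No source says that mice of a group were caged apart. The p-values treat each mouse as independent and would be too small if mice sharing a cage were alike. The steps were tested on simulated data. Tables and plots were made with Python 3.11.15, pandas 2.3.3, NumPy 2.4.6 and matplotlib 3.10.9.

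The members, lists, rules and tests were chosen with earlier results of these data known. Values by mouse are given for the 3 members of each class with the smallest adjusted p in HFD against NC and in SZ-A against HFD and for Col1a1, Col3a1, Col4a1, Col6a3, Col15a1, Lox, Fn1, Fbn1, Sparc, Lum, Thbs1, Postn and Serpinh1. At most 4 genes of each wider list are named. The alternatives were a pseudocount of 0.1, no filter, a filter at a mean of 1 FPKM, median-ratio and quantile scaling, all 3 groups in a single fit, the replicate number as a block, voom, the epithelial score as a covariate, the log2 limit, and leaving out each mouse. The covariate without NC replicate 6 and the within-mouse ratios were added after the data had been seen.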

Additional observations from a re-analysis of the deposited data

Results flagged for a closer look

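In each group the genes given by mouse were searched for a single mouse far from the rest, by the gap to the nearest mouse as a share of the group's range on the log2(FPKM + 1) scale. Of 117 pairs of gene and group, chance would mark about 1 in 20. NC replicate 6 was the lowest of its group, and apart from it, for 10 genes: Bgn (2.94 FPKM), Dcn (6.18 FPKM), Lox (0.813 FPKM), Serpinh1 (6.24 FPKM), Sparc (21.4 FPKM), Col1a2 (0.723 FPKM), Col3a1 (0.762 FPKM), Col4a1 (3.53 FPKM), Col6a1 (1.82 FPKM) and Col6a2 (0.478 FPKM). SZ-A replicate 5 was apart for 3 genes, lowest for Lama2 (0.839 FPKM) and Lamc1 (11.4 FPKM) and highest for Col9a3 (0.838 FPKM). Single mice were also apart for Bgn (HFD replicate 1, highest, 290.4 FPKM), Col1a1 (HFD replicate 2, lowest, 105.1 FPKM), Serpinh1 (SZ-A replicate 2, lowest, 74 FPKM), Col4a4 (NC replicate 1, highest, 2.07 FPKM) and Col6a3 (SZ-A replicate 6, highest, 22.4 FPKM).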

How the results depend on the processing

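Members called higher in HFD than in NC numbered 39, and 36 to 40 without single mice; with the epithelial score as covariate they numbered 4, or 5 without NC replicate 6 too. Members called lower numbered 5, and 1 at a mean of at least 1 FPKM, 2 with the replicate block, 3 with voom, 0 with covariate and without NC replicate 6, 0 past the log2 limit and 3 to 6 without single mice. In SZ-A against HFD, 29 members were lower, 25 to 31 without single mice, 15 with all 3 groups in a single fit and 4 past the log2 limit; 0 were higher, 1 with the covariate and 0 to 2 without single mice. In SZ-A against NC, 4 were higher, 2 with a pseudocount of 0.1, 2 with the replicate block, 2 with voom, 2 with the covariate with or without NC replicate 6, 20 with all 3 groups in a single fit and 2 to 13 without single mice; 0 were lower, and 0 to 1 without single mice. Past the log2 limit the SZ-A against NC counts are within 1.5 times the above. The causes were not tested.

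With the covariate, the log2 difference of HFD against NC turned sign for 33 of 58 members, 22 of them called. Of the genes given by mouse these were Bgn (-0.35), Col1a2 (-0.23), Col4a1 (-1.78), Col6a1 (-0.11), Col7a1 (0.26), Col8a1 (-0.16), Dcn (-2.85), Fbln1 (-0.12), Fbln2 (-1.08), Fn1 (-0.047), Lama2 (-0.034), Lamc1 (-0.86), Lox (-2.18), Loxl2 (-0.19), Lum (-0.031), Postn (-0.99), Serpinh1 (-0.71), Sparc (-1.50), Thbs1 (-3.82) and Tnxb (-0.67), and the median of basement membrane genes turned too (-0.86). The other 13 were Col4a2, Col5a3, Col6a6, P4ha1 and Plod2, which had been called, and Col4a5, Col6a4, Eln, Fmod, Lama4, Lamb1, Nid1 and Thbs2. Without NC replicate 6 too, 19 of 57 turned, 11 of them not given by mouse (those 13 without Col5a3 and Col6a4), and the others were Col23a1 (0.17), Col4a1 (-0.021), Col7a1 (0.21), Col8a1 (-0.090), Dcn (-1.17), Lox (-0.42), Postn (-0.046), Thbs1 (-1.72) and the same median (-0.13). In SZ-A against HFD the covariate turned Serpinh1 (0.0090), Col4a3, Col4a6 and Col6a4, quantile scaling Col4a6 and voom Col6a4. In SZ-A against NC, where none of these genes was called, it turned Col6a4, Eln, Lama4 and Lamb1, with or without NC replicate 6, and Col4a4 (0.0021), Col7a1 (0.0079), Col8a1 (-0.048), Dcn (-0.18), Thbs1 (-0.088) and Col20a1 (-0.065), and without NC replicate 6 too Col7a1 (0.016), Col8a1 (-0.075), Dcn (-0.30), Lox (-0.077), Thbs1 (-0.21) and Col20a1 (-0.072). Col20a1 was also turned there by quantile scaling (-0.0035), the replicate block (-0.0046) and voom (-0.059).

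Leaving out single mice could turn Thbs1 (-0.32 to 0.95) in HFD against NC, Col12a1 (-0.14 to 0.11) in SZ-A against HFD, and Col20a1 (-0.078 to 0.12), Dcn (-0.21 to 0.96) and Lox (-0.042 to 0.89) in SZ-A against NC, as well as Eln and Fmod, Col11a2 and Eln, and Col6a4, Eln, Lama4 and Lamb1 in the same 3 comparisons, none of them called in that comparison. The deviations of same-numbered mice of different groups had correlations from -0.41 to 0.584, and in most cases the best match of a mouse was not the mouse with its own number. Whether the numbers pair the mice was not tested and was not given in the sources used here. With the replicate block 36 members were higher in HFD than in NC and 28 lower in SZ-A than in HFD.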
